A study of Homo sapiens with 12 samples.

Results

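The 10 genes described here, AGO1, AGO2, AGO3, AGO4, DICER1, DROSHA, DGCR8, XPO5, TARBP2 and TNRC6A, encode the core proteins through which human cells make microRNAs and act on messenger RNA with microRNAs or transfected siRNAs. They were chosen by gene symbol from the 61806 genes of the deposited table, and all 10 were found. RNA had been sequenced from K1 and TPC-1, established human papillary thyroid cancer cell lines, in 12 libraries. The groups were K1 with TRIM35 siRNA, K1 with negative control siRNA, TPC-1 with TRIM35 siRNA and TPC-1 with negative control siRNA, with 3 libraries each. Both lines were labelled wild type, cells were harvested 24 hours after transfection, and every library, controls included, came from cells that had received an siRNA. No untransfected cells were analysed here, so the response of these genes to siRNA delivery itself was not measured. The labels do not say whether the 3 libraries of a group came from separate cultures. All p-values thus refer to variation among libraries, part of which may be technical.

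In the nucleus, the Microprocessor, made of the RNase III enzyme DROSHA and its RNA-binding partner DGCR8, cuts microRNA precursors out of long primary transcripts. XPO5 carries the precursor hairpins to the cytoplasm, where DICER1, with its partner TARBP2, trims them to short duplexes, and an Argonaute protein (AGO1 to AGO4) keeps one strand as its guide. A synthetic siRNA duplex needs neither the Microprocessor nor XPO5 and is loaded into Argonaute directly; AGO2 is the human Argonaute best known for slicing a fully matched target, and TNRC6A (GW182) is the scaffold that links Argonautes to the enzymes that shorten the poly(A) tail and remove the cap.

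The libraries held 16705044 to 22928861 counts over genes, and 22526 to 28045 genes had at least 1 count. Summed levels of the 8 thyroid follicular markers were 111 to 146 FPKM, a level scaled for exonic length and library size, in K1 and 24.8 to 28.8 FPKM in TPC-1. Most of that sum was PAX8, whereas TSHR and SLC5A5 were at or under 0.02 FPKM in every library and NKX2-1 was listed at 0 throughout. HHEX went the other way, with a mean of 3.28 FPKM in K1 and 5.28 FPKM in TPC-1. Summed leukocyte markers were 4.19 to 5.61 FPKM in K1, nearly all of it CD14, and 0.13 to 0.58 FPKM in TPC-1. Summed fibroblast markers were 0.89 to 1.32 FPKM in K1 and 1.69 to 2.44 FPKM in TPC-1. PDGFRB carried that difference, with means of 0.41 and 1.71 FPKM. COL1A1, COL1A2, COL3A1, DCN and LUM, all at or under 0.49 FPKM, had higher means in K1. Summed epithelial markers were 49.5 to 76.8 FPKM in K1 and 37.1 to 46.8 FPKM in TPC-1. Most of the TPC-1 sum was KRT18, with means of 32.8 FPKM in K1 and 40.2 FPKM in TPC-1. KRT8 (26.6 and 1.89), KRT19 (2.02 and 0.03) and EPCAM were higher in K1, and CDH1 was at or under 0.02 FPKM throughout. The part of these marker differences in the results below was not tested.

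Promoter sequences are shown for XPO5 and AGO3, the genes with the lowest and the highest K1 level relative to TPC-1. They are RefSeq sequences of GRCh38.p14, from 250 bases before to 50 after the start of the gene in that table, in the direction of transcription (chr6:43575989-43576288, minus strand, and chr1:35930855-35931154, plus strand); the table of such promoters matched 9 of the 10 genes. That start is the deposited table's own for XPO5, and for AGO3 it lies 387 bases downstream of the deposited start given below, so the whole AGO3 window lies inside the gene as deposited. Capitals mark matches to GGGCGG, the core of the GC box, on either strand (CCGCCC where it lies on the other strand).
XPO5: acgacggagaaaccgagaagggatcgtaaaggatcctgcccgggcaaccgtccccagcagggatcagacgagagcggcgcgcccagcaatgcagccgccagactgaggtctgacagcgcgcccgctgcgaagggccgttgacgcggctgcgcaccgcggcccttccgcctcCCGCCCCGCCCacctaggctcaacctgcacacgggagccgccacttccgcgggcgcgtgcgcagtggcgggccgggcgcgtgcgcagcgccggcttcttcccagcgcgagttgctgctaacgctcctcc
AGO3: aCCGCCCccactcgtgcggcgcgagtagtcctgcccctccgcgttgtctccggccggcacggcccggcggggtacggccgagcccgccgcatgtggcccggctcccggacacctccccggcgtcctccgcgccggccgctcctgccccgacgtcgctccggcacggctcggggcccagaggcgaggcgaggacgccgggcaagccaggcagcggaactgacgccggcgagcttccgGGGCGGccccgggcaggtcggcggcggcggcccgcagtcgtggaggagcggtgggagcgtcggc
Each promoter holds 2 matches, those of XPO5 overlapping, as 45.0% of 35116 promoters in the table hold at least 1. GC content was 71.7% in the XPO5 and 80% in the AGO3 promoter, against a median of 58.7% over all promoters. No binding was measured here.

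The machinery's own substrates also lie in this gene set: a microRNA hairpin sits within DICER1 and a pair within DGCR8, so that both genes carry a substrate of their own pathway. The 4 host transcripts described at the end had the smallest edgeR adjusted p of their list between the lines in control libraries. Other hosts on the list had larger fold changes. Some of the mature microRNAs within these genes and these hosts are shown 5′ to 3′ as in RefSeq (GRCh38.p14). The host is in brackets and the seed (bases 2 to 8) in capitals.
miR-3173-5p (DICER1): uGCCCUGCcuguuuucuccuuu
miR-3618 (DGCR8): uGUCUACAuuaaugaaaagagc
miR-1306-5p (DGCR8): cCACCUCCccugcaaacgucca
miR-15a-5p (DLEU2): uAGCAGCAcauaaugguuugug
miR-16-5p (DLEU2): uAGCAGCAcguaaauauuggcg
miR-100-5p (MIR100HG): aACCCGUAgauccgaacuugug
let-7a-5p (MIR100HG): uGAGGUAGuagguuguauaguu
miR-125b-5p (MIR100HG): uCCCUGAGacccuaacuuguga
miR-31-5p (MIR31HG): aGGCAAGAugcuggcauagcu
miR-4435 (MIR4435-2HG): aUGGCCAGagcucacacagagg
The microRNAs miR-15a-5p and miR-16-5p share the seed AGCAGCA, and the other 8 each have a seed of their own among those looked up. Mature microRNAs were not measured in these libraries.

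TRIM35, the siRNA's target, was read first as a check of the labels. TRIM35 had 1.20, 1.49 and 1.53 FPKM in K1 with TRIM35 siRNA, against 1.51, 1.85 and 1.47 FPKM in K1 controls, and the groups overlapped. It had 2.34, 2.56 and 2.58 FPKM in TPC-1 with TRIM35 siRNA, against 2.86, 2.91 and 3.06 FPKM in TPC-1 controls, with no overlap. The log2 fold change of siRNA over control was -0.19 (SE 0.17) in K1 and -0.24 (SE 0.16) in TPC-1, and neither passed edgeR's quasi-likelihood test (Benjamini-Hochberg adjusted p = 1 in both). A lower TRIM35 level was thus not shown by the test in either line, and the comparisons below are between siRNAs as labelled.

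All 10 genes were expressed in both lines, at more than 100 counts in every library, and all passed the filter on low counts. Levels between genes are compared here only as FPKM, which is per exonic length. That length is the deposited exonic size of the gene, 4090 to 22151 bases for these 10. The length of the transcripts expressed was not measured, and the order of genes and the shares below depend on it. Over the 6 libraries of each line, the highest mean in K1 was that of DROSHA, at 6.59 ± 0.33 FPKM (SD, n = 6), followed by TNRC6A at 5.91 ± 1.11, AGO2 at 4.54 ± 0.78, AGO4 at 3.78 ± 0.60 and XPO5 at 3.57 ± 0.39 FPKM. The other K1 means were 2.93 ± 0.73 FPKM for DICER1, 2.77 ± 0.37 for AGO1, 2.36 ± 0.47 for DGCR8, 2.22 ± 0.43 for AGO3 and 2.09 ± 0.10 for TARBP2. No neighbours in this K1 order were separated beyond the spread of their libraries. In TPC-1 the order began with XPO5 at 8.58 ± 1.61 FPKM, DROSHA at 7.56 ± 0.18, AGO2 at 6.63 ± 0.95, TNRC6A at 4.15 ± 0.44 and AGO4 at 3.92 ± 0.73 FPKM. It continued with AGO1 at 2.89 ± 0.22 FPKM, DGCR8 at 2.87 ± 0.51, TARBP2 at 2.80 ± 0.27, DICER1 at 2.73 ± 0.26 and AGO3 at 1.22 ± 0.18 FPKM. Only the steps from AGO2 to TNRC6A and from DICER1 to AGO3 in TPC-1 were between neighbours whose library ranges did not overlap. XPO5 thus ranked first in TPC-1 and below DROSHA, TNRC6A, AGO2 and AGO4 in K1.

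**Figure D1:**
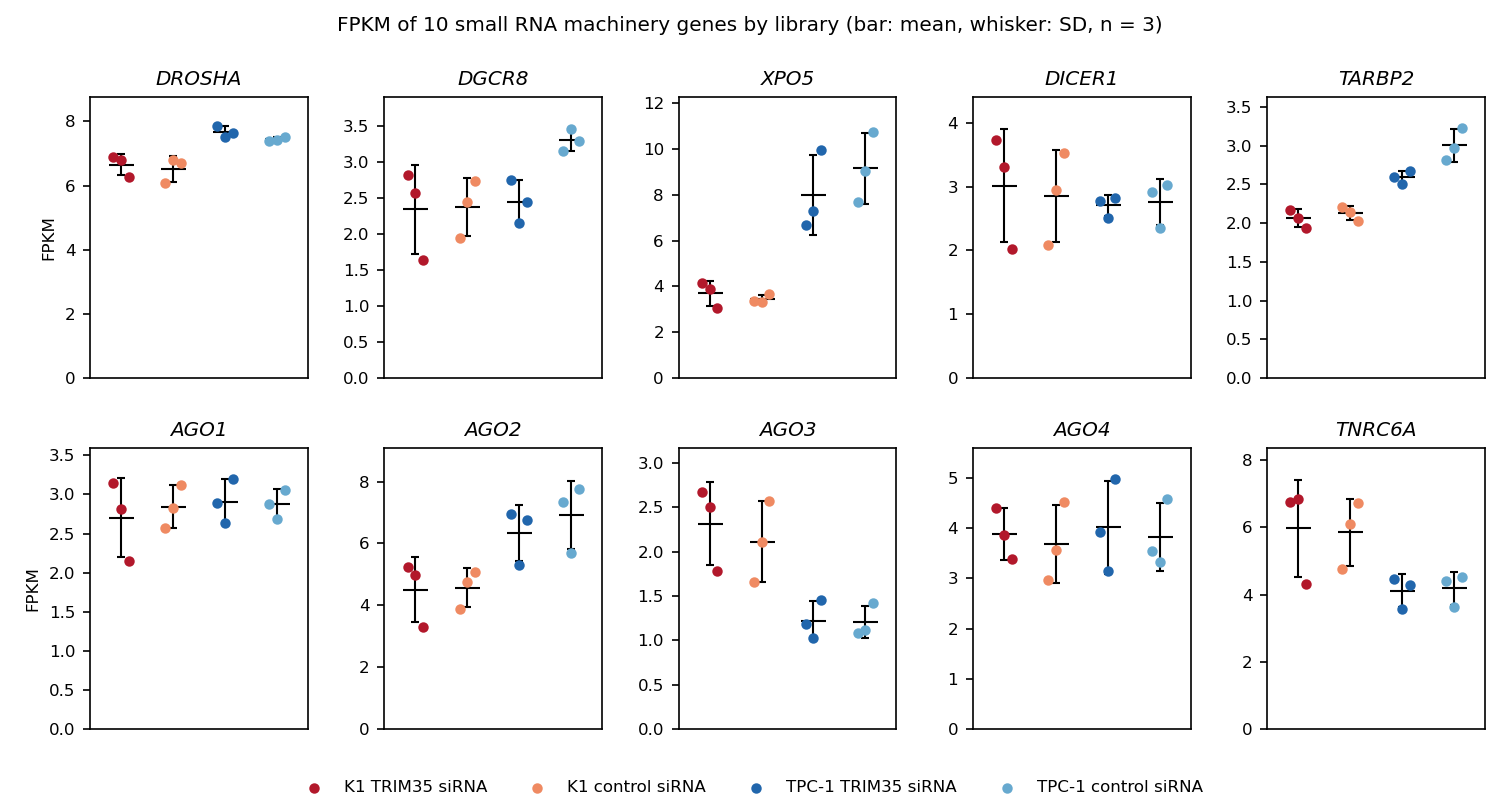
FPKM of the 10 genes in each of the 12 libraries (vertical axes start at 0; points are libraries, horizontal bars the mean and whiskers the SD of 3 libraries). XPO5 lies at 3.08 to 4.14 FPKM in the K1 libraries and at 6.69 to 10.77 FPKM in the TPC-1 libraries, while AGO3 lies at 1.66 to 2.67 FPKM in K1 and at 1.03 to 1.46 FPKM in TPC-1.

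The clearest differences in these genes were between the lines, not between the siRNAs. In the control siRNA libraries, XPO5, AGO2, TARBP2, DGCR8 and DROSHA were lower in K1 than in TPC-1, AGO3 and TNRC6A were higher, and AGO1, AGO4 and DICER1 did not pass the test (edgeR quasi-likelihood, Benjamini-Hochberg adjusted p under 0.05 over 17447 genes). That is 7 of 10 called, where 67.9% of all tested genes were called, 35.8% higher and 32.1% lower. In the TRIM35 siRNA libraries 6 of 10 were called, 2 higher and 4 lower, beside 68.3% of all genes, 35.9% higher and 32.4% lower. Both comparisons take their spread from 1 fit over all 12 libraries, and TPC-1 libraries with the same number deviated together, so they are not independent of each other. The shares of the 10 genes called are close to those of all genes, and the lines differ in most of their transcriptome. The median log2 fold change of the 10 genes, K1 over TPC-1, was -0.19 in TRIM35 siRNA and -0.22 in control libraries, against 0.06 over all genes in each. The FPKM ranges of the lines did not overlap for 5 of the 10 genes in TRIM35 siRNA libraries, beside 67.3% of all tested genes, and for 7 of 10 in control libraries, beside 71.8%. In bulk RNA of a cell line, fewer expressing cells and less RNA per cell cannot be told apart.

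**Figure D2:**
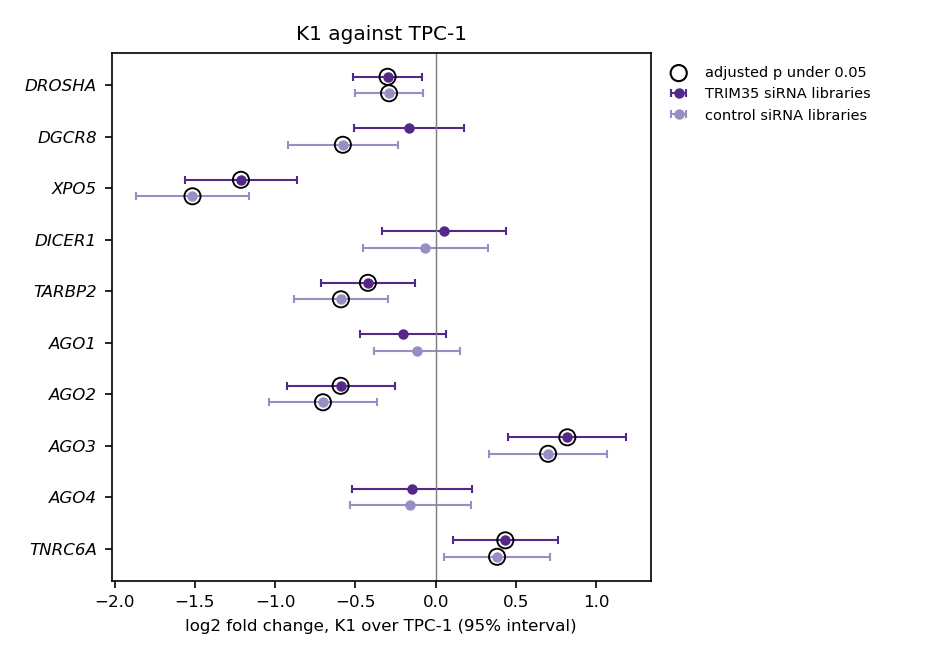
Log2 fold change of K1 over TPC-1 for each gene, in TRIM35 siRNA libraries (dark points) and control siRNA libraries (light points), with 95% intervals; rings mark an adjusted p under 0.05 in edgeR. XPO5 lies farthest left, at -1.21 and -1.51, and AGO3 farthest right, at 0.82 and 0.70.

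Of the Microprocessor pair, DROSHA (chr5:31400494-31532196, minus strand, hg38) differed little. DROSHA had 6.89, 6.80 and 6.27 FPKM in K1 with TRIM35 siRNA and 6.07, 6.80 and 6.69 FPKM in K1 controls, against 7.87, 7.50 and 7.64 FPKM in TPC-1 with TRIM35 siRNA and 7.39, 7.42 and 7.53 FPKM in TPC-1 controls. Every K1 library was below every TPC-1 library in both arms. Within groups DROSHA had a coefficient of variation of 0.99% to 6.04%, the lowest of the 10 genes in 3 of the 4 groups; in K1 controls TARBP2 at 4.27% and XPO5 at 5.30% varied less. It was 1.23-fold lower in K1 in TRIM35 siRNA libraries (95% interval 1.06 to 1.43, edgeR adjusted p = 0.0150) and 1.22-fold lower in control libraries (1.05 to 1.42, adjusted p = 0.0179). The call was lost when libraries were scaled by their totals alone (adjusted p = 0.0702 and 0.0891) and without the filter on low counts (0.130 and 0.194). It was also lost without K1 control replicate 1 (0.0565) or replicate 3 (0.0553) in control libraries, and without K1 TRIM35 siRNA replicate 2 (0.0502) or with only the groups compared in the fit (0.0689) in TRIM35 siRNA libraries.

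DGCR8 (chr22:20080232-20111877, plus strand), which recognises the primary transcript for DROSHA, had 2.81, 2.57 and 1.64 FPKM in K1 with TRIM35 siRNA and 1.94, 2.44 and 2.73 FPKM in K1 controls. In TPC-1 it had 2.75, 2.15 and 2.44 FPKM with TRIM35 siRNA and 3.15, 3.45 and 3.29 FPKM in controls. The 3 TPC-1 control libraries were higher than all others, and the other groups overlapped. DGCR8 was 1.49-fold lower in K1 among control libraries (95% interval 1.18 to 1.89, edgeR adjusted p = 0.00477), while among TRIM35 siRNA libraries its log2 fold change was -0.17 (SE 0.16, adjusted p = 0.372). These line differences differ by 0.41 on the log2 scale (SE 0.23), which is the same quantity as the difference between the siRNA effects tested below.

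XPO5 (chr6:43522334-43576038, minus strand) had 4.14, 3.88 and 3.08 FPKM in K1 with TRIM35 siRNA and 3.35, 3.32 and 3.65 FPKM in K1 controls. In TPC-1 it had 6.69, 7.29 and 9.98 FPKM with TRIM35 siRNA and 7.68, 9.04 and 10.77 FPKM in controls. The lowest TPC-1 library exceeded the highest K1 library by more than 2 FPKM. XPO5 was 2.32-fold lower in K1 in TRIM35 siRNA libraries (95% interval 1.82 to 2.95, edgeR adjusted p = 8.54e-06) and 2.86-fold lower in control libraries (2.24 to 3.65, adjusted p = 7.92e-07). Its gene body overlaps POLR1C, a subunit gene of RNA polymerases I and III on the opposite strand, by 40086 bases. POLR1C had 233 to 597 counts per library against 483 to 1900 for XPO5, and since strand-specific counting is not given in the sources used here, some reads of the pair may not be separable. The call held under all 23 alternative settings, with log2 fold changes of -1.59 to -0.93 in TRIM35 siRNA libraries and -1.79 to -1.18 in control libraries.

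DICER1 (chr14:95086228-95158010, minus strand), the RNase III enzyme that cuts precursors to duplexes, had 3.73, 3.30 and 2.02 FPKM in K1 with TRIM35 siRNA and 2.09, 2.94 and 3.52 FPKM in K1 controls. In TPC-1 it had 2.78, 2.51 and 2.82 FPKM with TRIM35 siRNA and 2.91, 2.35 and 3.03 FPKM in controls. All 4 groups overlapped, and the K1 libraries spread around the TPC-1 ones on both sides. Its log2 fold change was 0.05 (SE 0.18, 95% interval -0.34 to 0.44) in TRIM35 siRNA and -0.06 (SE 0.18, -0.45 to 0.33) in control libraries, so line differences of up to 1.36-fold upward and 1.37-fold downward are within these intervals. These bounds hold for this fit only. With the long-gene covariate described below, DICER1 was called lower in K1, at -0.64 in TRIM35 siRNA and -0.57 in control libraries.

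TARBP2 (chr12:53500921-53506431, plus strand), the double-stranded RNA-binding partner of DICER1, varied little within groups. TARBP2 had 2.17, 2.07 and 1.94 FPKM in K1 with TRIM35 siRNA and 2.21, 2.14 and 2.03 FPKM in K1 controls, against 2.60, 2.50 and 2.67 FPKM in TPC-1 with TRIM35 siRNA and 2.81, 2.97 and 3.23 FPKM in TPC-1 controls. All 6 K1 libraries were below all 6 TPC-1 libraries. It was 1.34-fold lower in K1 in TRIM35 siRNA libraries (95% interval 1.09 to 1.64, edgeR adjusted p = 0.0129) and 1.51-fold lower in control libraries (1.23 to 1.84, adjusted p = 0.00129). In TRIM35 siRNA libraries the call was lost without the filter on low counts (adjusted p = 0.0808), with only the compared groups in the fit (0.0505) and with the long-gene covariate described below (0.0770).

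Among the Argonautes, which are paralogs, AGO2 and AGO3 differed between the lines in opposite directions. AGO2 (chr8:140520156-140635633, minus strand) had 5.24, 4.99 and 3.30 FPKM in K1 with TRIM35 siRNA and 3.88, 4.74 and 5.09 FPKM in K1 controls, against 6.95, 5.30 and 6.76 FPKM in TPC-1 with TRIM35 siRNA and 7.33, 5.69 and 7.76 FPKM in TPC-1 controls. The lines did not overlap, although the second TPC-1 library of each siRNA came close to the highest K1 libraries. AGO2 was 1.51-fold lower in K1 in TRIM35 siRNA libraries (95% interval 1.19 to 1.9, edgeR adjusted p = 0.00365) and 1.63-fold lower in control libraries (1.29 to 2.05, adjusted p = 0.00103), and the call held under all 23 alternative settings.

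AGO4, AGO1 and AGO3 lie one after another on the plus strand of chromosome 1, at chr1:35808016-35857890, chr1:35869808-35930532 and chr1:35930718-36072500, with 11917 bases between AGO4 and AGO1 and 185 bases between AGO1 and AGO3. Of these 3 neighbours AGO3 alone was called between the lines, except in the fit with the long-gene covariate described below, in which AGO3 was not called and AGO1 and AGO4 were. AGO3 had 2.67, 2.50 and 1.78 FPKM in K1 with TRIM35 siRNA and 1.66, 2.11 and 2.57 FPKM in K1 controls, against 1.18, 1.03 and 1.46 FPKM in TPC-1 with TRIM35 siRNA and 1.08, 1.12 and 1.42 FPKM in TPC-1 controls. It was higher in every K1 library than in every TPC-1 library, 1.77-fold in TRIM35 siRNA libraries (95% interval 1.37 to 2.28, edgeR adjusted p = 0.000609) and 1.63-fold in control libraries (1.26 to 2.10, adjusted p = 0.00215). With that covariate the adjusted p was 0.195 and 0.0794, and under the other 22 alternative settings AGO3 was called in both arms. AGO1 had 3.15, 2.81 and 2.15 FPKM in K1 with TRIM35 siRNA and 2.57, 2.83 and 3.12 FPKM in K1 controls, against 2.89, 2.63 and 3.20 FPKM in TPC-1 with TRIM35 siRNA and 2.88, 2.68 and 3.06 FPKM in TPC-1 controls. AGO4 had 4.4, 3.87 and 3.38 FPKM in K1 with TRIM35 siRNA and 2.97, 3.57 and 4.52 FPKM in K1 controls, against 3.93, 3.14 and 4.98 FPKM in TPC-1 with TRIM35 siRNA and 3.54, 3.32 and 4.59 FPKM in TPC-1 controls. For both genes the groups of the lines overlapped. AGO1 had log2 fold changes of -0.21 (SE 0.13) and -0.12 (SE 0.13) in TRIM35 siRNA and control libraries, and AGO4 had -0.15 (SE 0.18) and -0.16 (SE 0.18); none passed edgeR's test.

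The make-up of the Argonaute pool was compared as each gene's share of the summed FPKM of AGO1 to AGO4, a single value per library. The AGO2 share was 33.9%, 35.2% and 31.1% in K1 with TRIM35 siRNA and 35%, 35.8% and 33.3% in K1 controls, against 46.5%, 43.8% and 41.2% in TPC-1 with TRIM35 siRNA and 49.4%, 44.4% and 46.1% in TPC-1 controls. It averaged 34.0% ± 1.71 in K1 and 45.2% ± 2.78 in TPC-1 (SD, n = 6 each), with no overlap (exact two-sided permutation test, p = 0.00216, the smallest that 6 against 6 allows, and 0.00433 after adjustment over the 2 shares planned). That test takes the 6 libraries of a line as exchangeable, although TPC-1 libraries with the same number deviated together across the siRNAs. Its p may thus overstate the evidence. Within each siRNA arm the 3 K1 libraries were again below the 3 TPC-1 libraries, where the smallest p that 3 against 3 allows is 0.1, and 0.1 was found in both. The AGO3 share was 16.6% ± 0.97 in K1 and 8.30% ± 0.60 in TPC-1, also without overlap, whereas AGO1 (20.9% ± 1.23 and 19.9% ± 1.27) and AGO4 (28.5% ± 1.95 and 26.6% ± 2.15) overlapped between the lines. The ratio of AGO3 to AGO1, chosen after the values were seen, was 0.797 ± 0.088 in K1 and 0.419 ± 0.035 in TPC-1. AGO2 was the largest Argonaute share in 11 of the 12 libraries, the exception being K1 TRIM35 siRNA replicate 3, in which AGO4 at 3.38 FPKM stood slightly above AGO2 at 3.30 FPKM.

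TNRC6A (chr16:24610209-24827632, plus strand) had 6.76, 6.84 and 4.31 FPKM in K1 with TRIM35 siRNA and 4.76, 6.10 and 6.72 FPKM in K1 controls, against 4.48, 3.56 and 4.30 FPKM in TPC-1 with TRIM35 siRNA and 4.41, 3.62 and 4.52 FPKM in TPC-1 controls. The control groups did not overlap, while the TRIM35 siRNA groups did through the third K1 library. TNRC6A was 1.35-fold higher in K1 in TRIM35 siRNA libraries (95% interval 1.08 to 1.70, edgeR adjusted p = 0.0208) and 1.30-fold higher in control libraries (1.04 to 1.64, adjusted p = 0.0384). In control libraries the adjusted p passed 0.05 without TPC-1 control replicate 1 (0.0531) or 2 (0.167), TPC-1 TRIM35 siRNA replicate 3 (0.0519) or K1 control replicate 2 (0.106) or 3 (0.140), with the replicate number as a block (0.0559), and with the long-gene covariate described below (log2 fold change 0.02, adjusted p = 0.896). In TRIM35 siRNA libraries it did so without TPC-1 TRIM35 siRNA replicate 2 (0.104) or K1 TRIM35 siRNA replicate 1 (0.0786) or 2 (0.101), and with that covariate (-0.06, adjusted p = 0.734). Its share of the summed FPKM of the 3 TNRC6 paralogs was 64.9% ± 1.57 in K1 and 60.6% ± 2.02 in TPC-1 (SD, n = 6 each, exact two-sided permutation test, p = 0.00649, and 0.00649 after adjustment over the 2 shares planned), and the lines overlapped. As for the AGO2 share, this test takes the libraries of a line as exchangeable, and its p may overstate the evidence. In the arms the exact p was 0.3 for TRIM35 siRNA and 0.1 for control libraries. TNRC6B took 27.1% ± 0.84 of the sum in K1 and 32.2% ± 2.87 in TPC-1, and TNRC6C 7.93% ± 1.07 and 7.15% ± 1.5.

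TRIM35 siRNA against control siRNA gave no call among the 10 genes in either line. In K1, 0 of 10 were called by edgeR (0.0% of all 17447 tested genes, of which 136, or 0.78%, had an unadjusted p under 0.05), and none of the 10 had an unadjusted p under 0.05. In TPC-1, 0 of 10 were called (0.0% of all tested genes, with 337, or 1.93%, at an unadjusted p under 0.05), and DGCR8 alone of the 10 was under 0.05 before adjustment. DESeq2 called 0 of the 10 in either line, and of all genes 0 in K1 and 2 in TPC-1. Median log2 fold changes of the 10 genes were 0.03 in K1 and -0.03 in TPC-1, against -0.00387 over all genes in K1 and 0 in TPC-1. The 95% intervals lay within 1.5-fold in both directions for 10 of 10 genes in K1 and 9 of 10 in TPC-1, and within 2-fold for all 10 in each. The summed FPKM of the 10 genes was 37.2 ± 6.41 in TRIM35 siRNA and 36.4 ± 4.60 in control libraries of K1, and 42.0 ± 4.32 in TRIM35 siRNA and 44.7 ± 3.99 in control libraries of TPC-1 (SD, n = 3 each).

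The FPKM ranges of the siRNA groups overlapped for all 10 genes in K1, where 4.74% of tested genes did not overlap. In TPC-1 they overlapped for 8 genes, and DGCR8 and TARBP2 were lower with TRIM35 siRNA without overlap, beside 4.60% of tested genes without overlap in either direction. Taken as pairs with the same replicate number, the TPC-1 libraries gave lower FPKM with TRIM35 siRNA in all 3 pairs for 4 of the 10 genes (AGO2, DGCR8, XPO5 and TARBP2), beside 14.1% of tested genes, and higher FPKM in all 3 for DROSHA, beside 13.3%. With the replicate number as a block within each line, XPO5 had a log2 fold change of -0.21, AGO2 -0.13 and DROSHA 0.04 in TPC-1 (edgeR adjusted p = 1 for each). With its values above, DGCR8 averaged 2.45 ± 0.30 FPKM in TPC-1 with TRIM35 siRNA and 3.30 ± 0.15 FPKM in TPC-1 controls (SD, n = 3 each), a log2 fold change of -0.43 (SE 0.16, unadjusted p = 0.0159, edgeR adjusted p = 1). In K1 its log2 fold change was -0.02 (SE 0.16). TARBP2 averaged 2.59 ± 0.09 FPKM in TPC-1 with TRIM35 siRNA and 3.00 ± 0.21 FPKM in TPC-1 controls, a log2 fold change of -0.21 (SE 0.14, edgeR adjusted p = 1), and it was -0.05 (SE 0.14) in K1. XPO5 had a log2 fold change of 0.10 (SE 0.16) in K1 and -0.20 (SE 0.16) in TPC-1, and AGO2, the slicing Argonaute, had -0.02 (SE 0.16) in K1 and -0.13 (SE 0.16) in TPC-1. The other 6 genes lay between -0.07 and 0.14 in K1 and between -0.03 and 0.07 in TPC-1.

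The difference between the siRNA effects, K1 minus TPC-1, was not called for any of the 10 genes or at an unadjusted p under 0.05 (0.0% of all genes called, with 301, or 1.73%, at an unadjusted p under 0.05). It was farthest from 0 for DGCR8, at 0.41 (SE 0.23, unadjusted p = 0.0895, edgeR adjusted p = 1.00), followed by XPO5 at 0.30 (SE 0.23). The mean effect over both lines called 0 of 10 as well, with 0 of 10 at an unadjusted p under 0.05 (0.0% and 1.59% of all genes, 277 of them under 0.05), with DGCR8 lowest at -0.23 (SE 0.11) and AGO4 highest at 0.08 (SE 0.12). DESeq2 called 0 of the 10 in both comparisons.

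**Figure D3:**
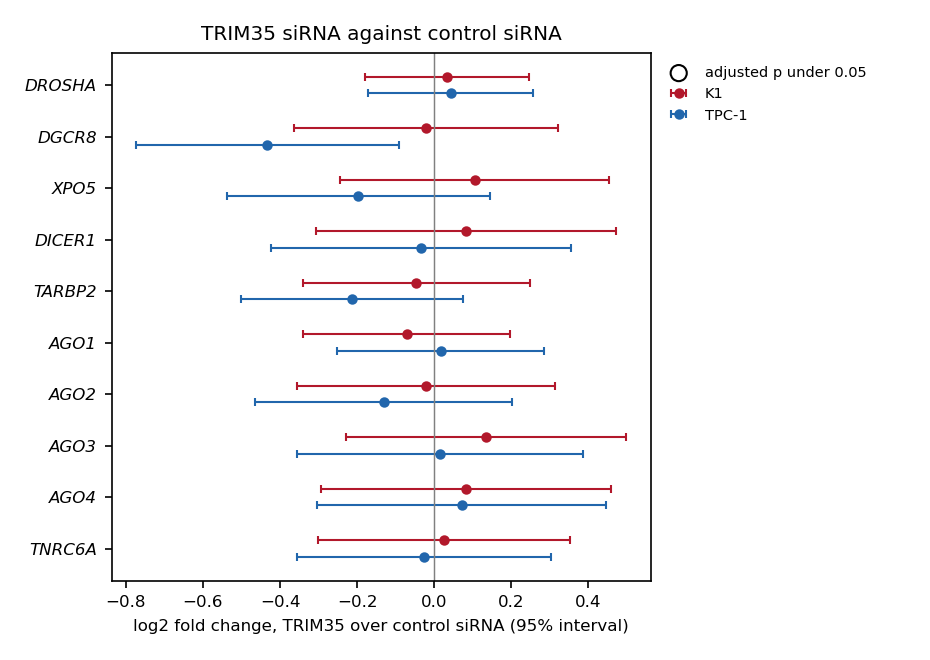
Log2 fold change of TRIM35 siRNA over control siRNA for each gene in K1 (red) and TPC-1 (blue), with 95% intervals from edgeR. No gene has an adjusted p under 0.05, and DGCR8 in TPC-1, at -0.43, is the only point whose unadjusted interval does not reach 0.

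Within groups the 10 genes tended to shift together from library to library. In K1 with TRIM35 siRNA, their mean log2 CPM (counts scaled to library size) differed from the group mean by 0.14, 0.07 and -0.21 in replicates 1, 2 and 3, with 9, 7 and 2 of the 10 genes above their own group mean. In K1 controls the mean shifts were -0.14, 0.02 and 0.12, with 2, 7 and 8 genes above. In TPC-1 they were -0.02, -0.12 and 0.13 with TRIM35 siRNA (3, 1 and 9 genes above) and -0.06, -0.09 and 0.16 in controls (3, 3 and 10 genes above). In the library farthest from its group mean, 8 or more of the 10 genes lay on the same side in every group, and K1 replicate 3 was low with TRIM35 siRNA and high in controls.

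The make-up of the libraries moved with these shifts. Genes with 10000 or more exonic bases, 2816 in the table and 5 of the 10 described here (AGO1, AGO2, AGO3, DICER1 and TNRC6A), took 27.7%, 26.7% and 22.2% of counts in K1 with TRIM35 siRNA and 22.5%, 24.3% and 26.8% in K1 controls. They took 19.3%, 18.8% and 21.6% in TPC-1 with TRIM35 siRNA and 19.5%, 19.6% and 21.9% in TPC-1 controls. Within every group the library with the highest long-gene share also had the highest mean of the 10 genes, and in 3 of 4 groups the lowest share went with the lowest mean. The share also separated the lines, at 22.2% to 27.7% in K1 and 18.8% to 21.9% in TPC-1, with no overlap. The share of counts from ribosomal protein genes moved the other way. It lay on the opposite side of its group mean from the 10 genes in all 12 libraries, whereas the long-gene share lay on the same side as the 10 genes in 11 of 12. In K1 TRIM35 siRNA replicate 3 the ribosomal protein share was 1.37 percentage points above its group mean, and in TPC-1 TRIM35 siRNA replicate 3 it was 1.28 points below (-1.28). It was 4.27% to 6.66% in K1 and 6.16% to 8.42% in TPC-1, with overlap. The part of either share in the shifts of the 10 genes was not tested.

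**Figure D4:**
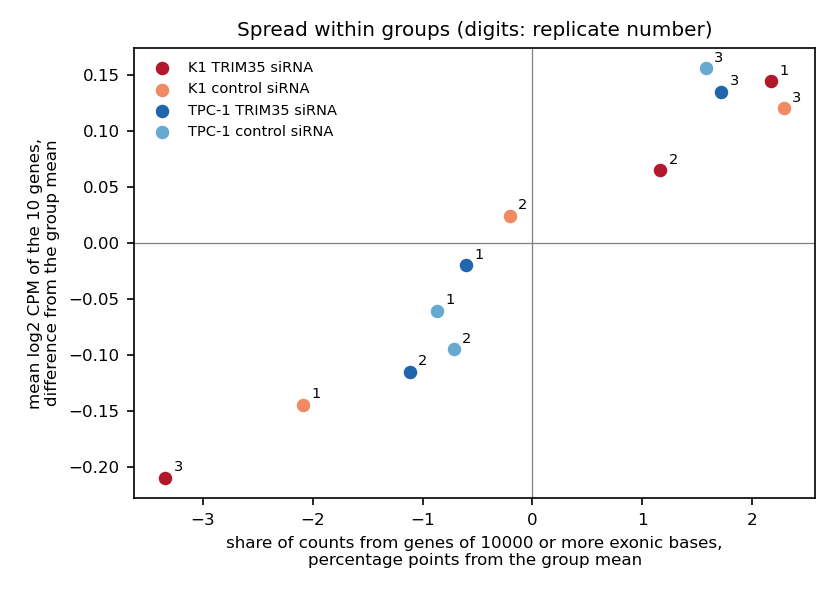
Mean log2 CPM of the 10 genes (vertical axis) against the share of counts from genes of 10000 or more exonic bases (horizontal axis, percentage points), each as the difference from the library's own group mean, with 1 point per library and its replicate number. The K1 TRIM35 siRNA replicate 3 lies lowest, at -3.34 points and -0.21, and 5 libraries lie above 0 on both axes.

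With that share as a covariate, an alternative chosen after the data were seen, XPO5 was lower in K1 by a log2 fold change of -1.59 in TRIM35 siRNA and -1.79 in control libraries, and AGO2 by -1.08 and -1.05, all still called. AGO3 and TNRC6A were no longer called: AGO3 had 0.21 and 0.25 (edgeR adjusted p = 0.195 and 0.0794), and TNRC6A -0.06 and 0.02 (0.734 and 0.896). AGO1 (-0.55 and -0.37), AGO4 (-0.65 and -0.54) and DICER1 (-0.64 and -0.57) were then called lower in K1 in both arms. DGCR8 was then called lower in TRIM35 siRNA libraries too (-0.63), and TARBP2 was not (-0.40, adjusted p = 0.0770). Leaving out K1 TRIM35 siRNA replicate 3 and K1 control replicate 1, the K1 libraries with the least long-gene share, kept the same number of calls, 6 and 7, with AGO3 at 0.94 and 0.83 and TNRC6A at 0.59 and 0.50. The share did not overlap between the lines, so line and share cannot be fully told apart in the covariate fit. It also includes the counts of AGO1, AGO2, AGO3, DICER1 and TNRC6A themselves. Which of these fits describes the lines better was not tested.

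The partners of these proteins were described through 7 further lists. In control libraries, all 5 genes of the export list were lower in K1 (median log2 fold change -1.29): RANBP1 -1.80, RAN, the small GTPase that XPO5 binds with its cargo, -1.60, XPO1, the exportin of many proteins and RNAs, -1.29 and RCC1, the exchange factor of RAN, -1.25. All 5 were lower in TRIM35 siRNA libraries as well, where the median was -1.30. RAN averaged 58.2 ± 6.22 FPKM in K1 and 164 ± 16.9 FPKM in TPC-1 (SD, n = 6 each). XPO5 and the whole RAN list were thus lower in the same line, in a comparison where 32.1% of all genes were.

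Dicer and loading partners, mostly the HSP90 and HSP70 chaperone machinery that opens Argonaute for a duplex, were lower in K1 for 9 of 11 genes in TRIM35 siRNA and 10 of 11 in control libraries, with medians of -0.86 and -0.79 and none called higher. Of all tested genes, 32.4% were called lower in TRIM35 siRNA and 32.1% in control libraries, and 35.9% and 35.8% were called higher. HSP90AA1, the inducible cytosolic HSP90, averaged 192 ± 5 FPKM in K1 and 1886 ± 392 FPKM in TPC-1 (SD, n = 6 each), 9.72-fold lower in K1 in TRIM35 siRNA and 11.3-fold lower in control libraries (edgeR adjusted p = 3.30e-09 and 1.79e-09). The HSP70 family member HSPA8 was 2.89-fold and 4.07-fold lower, the constitutive HSP90AB1 2.29-fold and 2.55-fold, and the co-chaperone PTGES3 (p23) 2.72-fold and 2.65-fold. HSPA8 ranged from 281 to 877 FPKM within TPC-1, against 172 to 214 FPKM in K1. PRKRA went the other way, with means of 4.2 FPKM in K1 and 3.6 FPKM in TPC-1, and was not called higher.

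Nuclear processing cofactors were higher for 3 and lower for 8 of 11 genes in both arms, with medians of -0.69 in TRIM35 siRNA and -0.71 in control libraries, where 35.9% and 35.8% of all genes were called higher and 32.4% and 32.1% lower. SRSF3, a splicing factor that helps the Microprocessor place its cut, had log2 fold changes of -1.85 in TRIM35 siRNA and -1.88 in control libraries. ILF2, a subunit of a double-stranded RNA-binding complex, had -0.96 and -1.16. KHSRP, which binds terminal loops of some precursors, had -0.80 and -0.71.

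The 27 silencing effectors were TNRC6B, TNRC6C and, for the most part, deadenylases, decapping factors and translation repressors that act after TNRC6 proteins. They were more divided, with 4 called higher and 11 lower in each arm. Medians were -0.22 in TRIM35 siRNA and -0.23 in control libraries. Of all genes, 68.3% and 67.9% were called in these arms, 35.9% and 35.8% higher and 32.4% and 32.1% lower. CNOT11 and CNOT7, subunits of the CCR4-NOT deadenylase, had -1.80 and -1.60, and -1.55 and -1.67. PABPC1, the cytoplasmic poly(A)-binding protein, had -1.82 and -1.72, and DDX6, a helicase recruited by CCR4-NOT, -1.22 and -1.11.

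Of 13 genes of small RNA turnover and tailing, 11 were tested, with 4 higher and 4 lower in each arm, near the shares of all genes (35.9% and 35.8% higher, 32.4% and 32.1% lower in TRIM35 siRNA and control libraries). LIN28A and LIN28B, which block let-7 maturation, were at or under 0.15 FPKM in every library and were not tested. ADARB1, an adenosine deaminase acting on double-stranded RNA, had 1.52 in TRIM35 siRNA and 1.55 in control libraries, ZSWIM8, the adaptor of target-directed microRNA decay, 1.13 and 1.11, and TUT7, a uridylyl transferase, 0.98 and 0.92. TENT4B, a terminal nucleotidyl transferase, was lower at -0.90 and -1.06. PIWI genes, the germline relatives of the Argonautes, were near 0: PIWIL1 and PIWIL3 were listed at 0 in all 12 libraries, and PIWIL2 and PIWIL4 had at most 0.36 FPKM. PIWIL2 had -0.79 (edgeR adjusted p = 0.0698) and -1.01 (0.0259), and PIWIL4 1.1 (0.0396) and 0.72 (0.175) in TRIM35 siRNA and control libraries.

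Of 13 microRNA host transcripts, 12 were tested, with 5 higher and 5 lower in K1 in TRIM35 siRNA and 5 higher and 4 lower in control libraries, beside 35.9% and 35.8% of all genes called higher and 32.4% and 32.1% lower. DLEU2, host of miR-15a and miR-16, averaged 0.72 ± 0.10 FPKM in K1 and 2.85 ± 0.29 FPKM in TPC-1, with log2 fold changes of -2.06 and -2.11. MIR4435-2HG averaged 0.70 ± 0.07 FPKM in K1 and 2.56 ± 0.11 FPKM in TPC-1 (-2.03 and -1.92). In the other direction, MIR100HG, host of miR-100, let-7a and miR-125b, averaged 1.69 ± 0.09 FPKM in K1 and 0.56 ± 0.03 FPKM in TPC-1 (1.48 and 1.53), and MIR31HG 1.18 ± 0.10 FPKM in K1 and 0.27 ± 0.04 FPKM in TPC-1 (2.10 and 1.99, SD and n = 6 for all). A host transcript's level is not that of its mature microRNAs, whose sequences are printed above and which these libraries do not measure. No gene of any of the 7 lists was called in either comparison of TRIM35 siRNA with control siRNA, in their difference or in their mean.

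**Figure D5:**
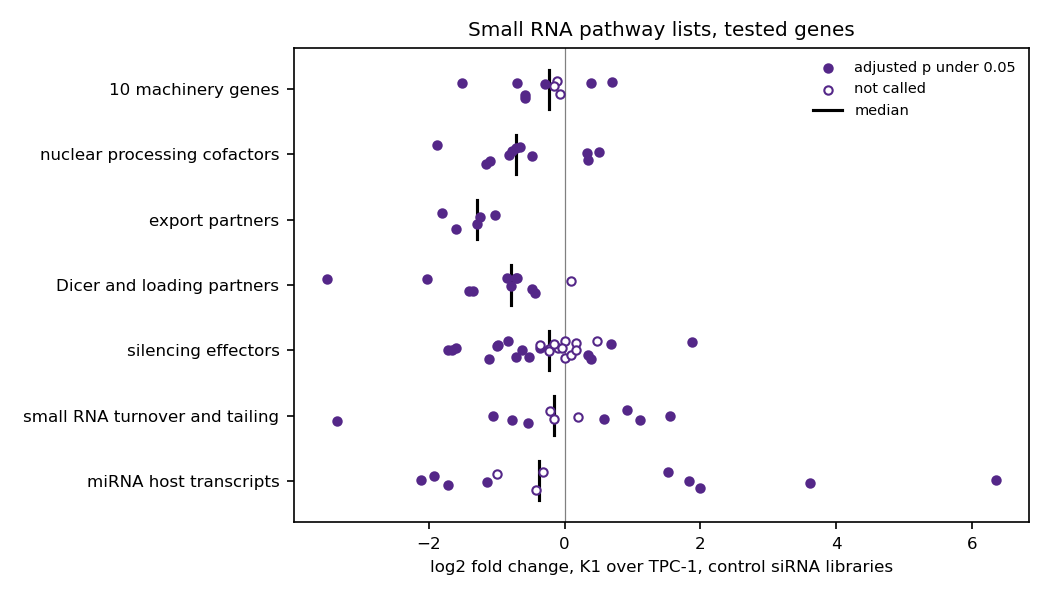
Log2 fold change of K1 over TPC-1 in control siRNA libraries for the tested genes of the 10 machinery genes and 6 partner lists (PIWI genes left out, with 2 tested); filled points have an edgeR adjusted p under 0.05, and vertical bars are list medians. All 5 export partners lie below -1, while silencing effectors and host transcripts lie on both sides of 0.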

How the data were processed

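Total RNA from 12 libraries was converted to cDNA by random-primed reverse transcription, per the labels' protocols. Per the submitters' processing notes, cutadapt 1.9.1 was used and the build was hg38. The sources used here name no aligner, counter, annotation release or strand setting. One table with a raw count and an FPKM for each gene in each library was deposited. The deposited FPKM equal the count over exonic size and library total, within a relative difference of 0.005. Replicates of a group differed by 3.97 to 58.9 times the counting noise (chi-square per degree of freedom), so none were merged. TPC-1 control replicate 3 carries another line name in its title. Its other labels give TPC-1, where it was kept. In this library the mean of the 10 genes lay farthest from that of its group, by 0.16 on the log2 scale.

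The tests on counts used edgeR 4.0.16 under R 4.3.3 (filterByExpr, which left 17447 genes and removed at most 0.200% of a library's counts; TMM; glmQLFit and glmQLFTest; 1 mean per group, all 12 libraries, 8 residual degrees of freedom), with Benjamini-Hochberg adjustment over all tested genes, a threshold of 0.05 and 95% intervals. Depth limits precision, and intervals cover the spread between libraries. On simulated counts for TRIM35 against control siRNA in K1, the test called 40.0% of 100 genes changed 1.5-fold and 100% of 100 genes changed 3-fold, of 17447 genes. Those counts were drawn independently from edgeR's fitted trend of spread, and genes of low counts were left unchanged. The shared shifts between libraries described above were not simulated. The rates thus check the code and do not give the power of the K1 comparison. Shares were compared by exact two-sided permutation tests (scipy 1.17.1). Alternatives were DESeq2 1.42.0, limma 3.58.1 on log2(FPKM + 0.1) and log2(FPKM + 1), other scalings and filters, a replicate block, and each library left out. Replicate numbers paired the TPC-1 libraries: deviations from group means correlated at 0.71, 0.31 and 0.80 across 10562 genes between libraries with the same number.

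The 10 genes and all lists were chosen with earlier results of these data known. Named partner genes are up to 4 per list with the smallest adjusted p in the control libraries of K1 against TPC-1; 1 gene that this rule selects is not reported here. The labels used here give no batch that differs among the 12 libraries, so no comparison of labelled batches was possible. The replicate number, by which TPC-1 libraries deviated together, was used as a block instead, and what it stands for is not given.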

Additional observations from a re-analysis of the deposited data

How the results depend on the processing

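Across 23 alternative settings (22 for the difference and the mean effect), XPO5 and AGO2 kept their call and direction between the lines in both arms, as did DGCR8 and TARBP2 in control libraries. The members called numbered 4 to 7 in TRIM35 siRNA and 5 to 8 in control libraries, and 0 in all siRNA comparisons. No member called between the lines changed direction under another scaling. K1 numbers did not pair (-0.77, 0.10 and -0.80). Blocking by replicate number within each line gave 0 genes called in every siRNA comparison, and the block across lines, added later, removed only the TNRC6A call given above (0.38, adjusted p = 0.0559).

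Genes called by DESeq2 were 2 in TPC-1 and 2 for the difference. Without the filter on low counts they were 2 in TPC-1, 2 in K1, 4 for the difference and 1 for the mean. Leaving out 1 library gave 0 to 1 for the difference.

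The following log2 fold changes changed sign, and the cause was not tested. With the long-gene covariate, DICER1 became 0.0244 and TNRC6A 0.0137 for TRIM35 siRNA in TPC-1, and DICER1 -0.0467 and TNRC6A -0.0718 for TRIM35 siRNA in K1, and AGO2 -0.0296, AGO3 -0.0352, AGO4 -0.1095, DICER1 -0.0711 and TNRC6A -0.0854 for the difference, and DICER1 -0.0112 for the mean, and DICER1 -0.6374 and TNRC6A -0.0644 for the lines with TRIM35 siRNA. Without the 2 K1 libraries of least long-gene share, AGO2 became 0.0518, DGCR8 0.0507 and TARBP2 0.0138 for TRIM35 siRNA in K1, and AGO4 -0.0581 for the difference, and AGO1 0.0134, XPO5 0.0082 and TNRC6A 0.033 for the mean, and DICER1 0.1041 for the lines with control siRNA, and DGCR8 0.0011 for the lines with TRIM35 siRNA. Without the filter, AGO4 became -0.0133 for the difference, and TNRC6A 0.0012 for the mean. With size factors, TNRC6A became 0.0072 for the mean. With library totals, TNRC6A became 0.0012 for the mean, and DICER1 0.0423 for the lines with control siRNA. In DESeq2, TNRC6A became 0.0071 for the mean. At a CPM of at least 1 in 3 libraries, TNRC6A became 0.001 for the mean. In limma with pseudocount 0.1, DICER1 became 0.0208 for the lines with control siRNA. In limma with pseudocount 1, DICER1 became 0.02 for the lines with control siRNA.

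Leaving out each library in turn moved these values across 0. For TRIM35 siRNA in K1, AGO1 ran from -0.1617 to 0.0395, AGO2 from -0.1118 to 0.1348, AGO4 from -0.0228 to 0.2198, DGCR8 from -0.1405 to 0.1547, DICER1 from -0.0735 to 0.2791, TARBP2 from -0.1026 to 0.0152 and TNRC6A from -0.0773 to 0.1873. For TRIM35 siRNA in TPC-1, AGO1 ran from -0.0494 to 0.0847, AGO3 from -0.125 to 0.1746, AGO4 from -0.1069 to 0.2483, DICER1 from -0.1343 to 0.0577 and TNRC6A from -0.1173 to 0.0602. For the difference, AGO1 ran from -0.178 to 0.0073, AGO3 from -0.0356 to 0.2642, AGO4 from -0.1637 to 0.1918, DICER1 from -0.0402 to 0.2979, DROSHA from -0.0361 to 0.0013 and TNRC6A from -0.0514 to 0.1991. For the mean, AGO1 ran from -0.0727 to 0.0358, AGO2 from -0.1368 to 0.0089, AGO4 from -0.011 to 0.1665, DICER1 from -0.0534 to 0.1301, TNRC6A from -0.0515 to 0.0877 and XPO5 from -0.1343 to 0.0339. For the lines with TRIM35 siRNA, AGO4 ran from -0.291 to 0.0264 and DICER1 from -0.0968 to 0.2373. For the lines with control siRNA, DICER1 ran from -0.2127 to 0.095. The share of AGO2 differed by -12.0 to -10.4 percentage points and that of TNRC6A by 3.72 to 4.84.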
